A study of Mus musculus with 6 samples.

Results

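The transcripts described here are those of 10 lipases and lipase co-regulators, Pnpla2, Pnpla3, Lipe, Mgll, Abhd5, G0s2, Ces1d, Lipc, Lpl and Pnpla8. They were selected by gene symbol with earlier results of these data known, and all 10 were found among the 24346 symbols of the deposited expression table. Cytosolic lipolysis is the stepwise removal of fatty acids from the triglyceride of a lipid droplet. Adipose triglyceride lipase, the product of Pnpla2, takes the first fatty acid, hormone-sensitive lipase (Lipe) acts mainly on the remaining diacylglycerol, and monoacylglycerol lipase (Mgll) releases the last. The protein ABHD5 switches adipose triglyceride lipase on and the protein G0S2 blocks it, and the balance of these proteins is known to set how fast hepatocytes draw on their droplets. Not every member works in the cytosol: hepatic lipase (Lipc) and lipoprotein lipase (Lpl) are secreted, the carboxylesterase encoded by Ces1d lies in the endoplasmic reticulum, and the phospholipase encoded by Pnpla8 is found in mitochondria and peroxisomes.

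Liver RNA was measured in 3 control livers (LDTS-LIR mut) and 3 lipophagy livers (LDTS-eLIR) of male C57BL/6 mice (C57BL/6J in the study's methods) that were 8 weeks old when feeding of CDAHFD began, a high-fat diet that lacks choline and gives protein as amino acids. Each mouse was fed CDAHFD for 6 weeks as a model of nonalcoholic steatohepatitis, and its liver was taken after another 2 weeks on a standard diet. According to the methods, mice on CDAHFD were grouped by body weight and then received a single intravenous dose of adeno-associated virus of serotype 8 with the liver-specific thyroxine-binding globulin promoter. In both groups the virus encoded mCherry and a lipid droplet-targeting sequence (LDTS) from mouse perilipin 1, which the study notes is itself mildly lipogenic. The groups differed in the attached LC3-interacting region (LIR), the stretch that recruits autophagosomes, which was engineered (eLIR) in lipophagy livers and mutant in control livers. No liver without virus and none of a chow-fed mouse was analysed here. The comparison asks whether transcripts of enzymatic lipolysis differed when droplets were directed to autophagy.

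Values are FPKM, fragments scaled to the length of the transcript and to the mapped total of the library. The depth estimated from the values was 22.8 to 33.9 M fragments per liver. The livers resembled each other closely, with rank correlations across all symbols of 0.979 to 0.982. Summed FPKM over all symbols was 622696, 657300 and 681138 for controls 1 to 3. The lipophagy livers summed to 782392, 734436 and 709993, so the groups did not overlap in this total. Albumin (Alb), a hepatocyte product, was at 35470 to 39159 FPKM in control and 45009 to 64089 FPKM in lipophagy livers. With every liver set to the same sum, an alternative chosen after seeing the data, the median log2 change of all tested genes moved from 0.02 to −0.13, and members whose direction depended on this are named with their values. The 8 hepatocyte markers summed to 53740 to 60895 FPKM in control and 64763 to 87178 FPKM in lipophagy livers, and Alb made up most of each sum. On average 6 of the 8 were higher in lipophagy livers and 2, Apoa1 and Apob, were lower. The groups did not overlap for 4 of them, all higher, beside 15.4% of all tested genes higher without overlap. Of the adipocyte markers, leptin (Lep) was listed at 0 in all 6 livers and adiponectin (Adipoq) reached at most 0.0395 FPKM, while Fabp4, which macrophages and endothelium also express, was at 17.7 to 27.4 FPKM and made up nearly all of the list's sum of 18.0 to 27.5 FPKM. The 4 lymphocyte markers summed to 5.39 to 5.98 FPKM in controls and 4.40 to 4.47 FPKM in lipophagy livers. The groups overlapped in the sums of macrophage, stellate cell, endothelial and bile duct markers. Lyz2 made up most of the macrophage sums and Dcn most of the stellate cell sums, so these sums say little of the other markers. On average 5 of 7 stellate cell and 4 of 4 bile duct markers were lower in lipophagy livers, and 5 of 6 endothelial markers were higher. The stellate cell markers Pdgfrb (log2 change −0.32, unadjusted p = 0.00346, limma) and Rgs5 (−0.37, unadjusted p = 0.0154, limma) were lower without overlap.

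The ratio of the lipophagy to the control mean was 0.971 to 1.13 for the droplet lipases Pnpla2, Lipe and Mgll and the co-activator Abhd5, and the inhibitor G0s2 was the member with the largest difference. G0s2 averaged 69.6 ± 40.3 FPKM (SD, n = 3) in lipophagy livers against 29.5 ± 8.44 FPKM in controls, and Ces1d averaged 266 ± 34.3 against 198 ± 25.9 FPKM. Pnpla2, the lipase that G0S2 blocks, was at 25.3 ± 4.32 FPKM in lipophagy and 26.1 ± 2.55 FPKM in control livers. None of these differences passed the test. With limma on log2(FPKM + 1) across the 11493 genes that averaged 0.5 FPKM or more over the 6 livers, 0 of the 9 members tested had a Benjamini-Hochberg adjusted p below 0.05, against 3 genes or 0.0261% of all genes tested. At an unadjusted p below 0.05 there were 2 members, G0s2 and Ces1d, and this share of 22.2% was near the background of 19.5% of all tested genes. The groups did not overlap for 2 members, Ces1d and Pnpla8, and for 26.2% of all tested genes. The median log2 change of the 9 members was 0.16, with 7 higher and 2 lower in lipophagy livers (2 higher and 7 lower with the same sum of FPKM in each liver), beside a median of 0.02 over all tested genes. The samples are numbered and not tied to named animals in the labels, so the p-values measure the spread between these livers.

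**Figure D1:**
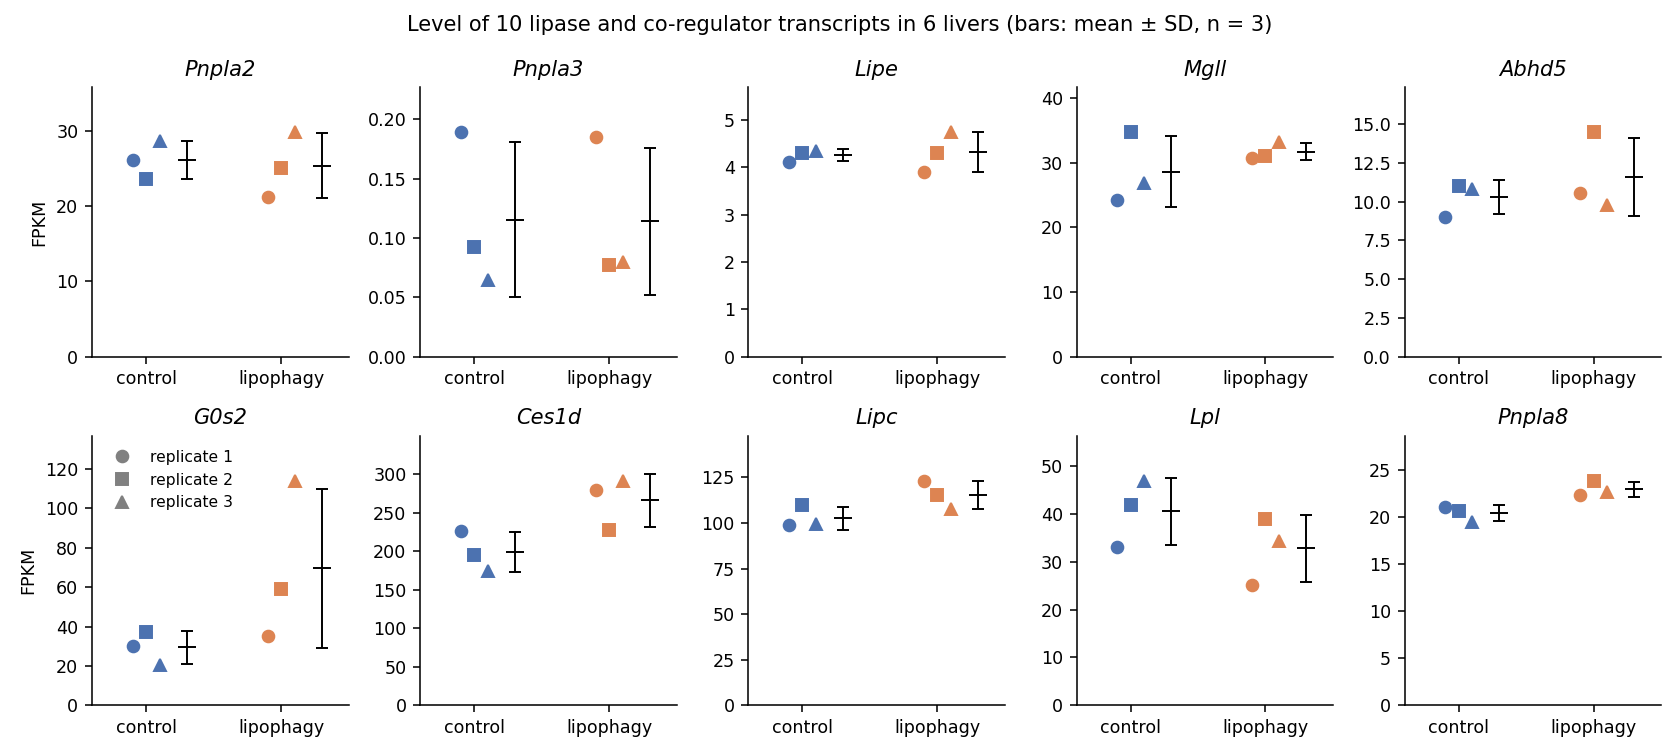
FPKM of each of the 10 genes in every liver (y axis, from 0, with its own scale in each panel) for control and lipophagy livers (x axis), with symbols for the replicate number and black bars for mean ± SD of 3 livers. G0s2 spreads from 35.4 to 114 FPKM in lipophagy livers, while the Pnpla2 and Lipe groups lie on top of each other.

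Pnpla2 (chromosome 7, 141455198 to 141460743, plus strand, GRCm38) was at 26.1, 23.5 and 28.7 FPKM in control livers 1, 2 and 3. The lipophagy livers held 21.2, 25.0 and 29.8 FPKM, so the lowest and the highest liver were both lipophagy livers and the groups overlapped across the whole control range. Its log2 change was −0.05 (SE 0.13, 95% interval −0.35 to 0.25, unadjusted p = 0.716 and adjusted p = 0.856, limma). A difference within that interval was not detectable with these livers, and the sign turned to 0.02 without control 3 and to 0.07 without lipophagy 1. These levels rest on an estimated 1240 to 2404 fragments per liver.

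Lipe (chromosome 7, 25379527 to 25398710, minus strand) was at a lower level, with 4.11, 4.31 and 4.36 FPKM in control livers and 3.90, 4.31 and 4.74 FPKM in lipophagy livers. The control values lay inside the range of the lipophagy values. The log2 change was 0.01 (SE 0.085, 95% interval −0.18 to 0.21, adjusted p = 0.949, limma), and it was −0.14 with the same sum of FPKM in each liver. An estimated 328 to 526 fragments per liver stand behind it.

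Mgll (chromosome 6, 88724412 to 88828360, plus strand) stood at 24.2, 34.8 and 26.9 FPKM in control livers. In lipophagy livers it was at 30.8, 31.1 and 33.2 FPKM, a narrower range that fell below control 2. The log2 change was 0.16 (SE 0.13, 95% interval −0.14 to 0.45, unadjusted p = 0.249 and adjusted p = 0.503, limma), and −0.02 with the same sum of FPKM. Its size rested on single control livers, since without control 2 the log2 change was 0.30 with an unadjusted p of 0.0174 (limma) and without control 1 it was 0.05 with an unadjusted p of 0.687 (limma). It was also 0.05 after quantile normalization and 0.07 with a quality weight for each liver, an alternative chosen after seeing the data.

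Pnpla3 (chromosome 15, 84167837 to 84187236, plus strand), a droplet protein of the adipose triglyceride lipase family that is known for binding ABHD5 and for its induction by refeeding, was nearly silent. It was at 0.189, 0.0928 and 0.0648 FPKM in control livers and at 0.185, 0.0769 and 0.0800 FPKM in lipophagy livers. Few fragments stand behind these values, an estimated 2.04 to 5.86 per liver with the length of the GENCODE transcript. The smallest whole numbers in the ratios of the values, within 0.1 of a fragment and given the relative depths, are higher, 8 to 23 per liver. These whole numbers use no transcript length. The lower estimate does use one, and the authors' transcript length is not given in the sources used here. Replicate 1 was highest in both groups and the groups overlapped. Its mean did not reach 0.5 FPKM, so Pnpla3 was left out of the test, and no difference was detectable with so few fragments. It overlaps the gene model Gm49513 on the same strand, with 7 of 1214 windows of 100 bases (0.577%) shared.

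ABHD5 and G0S2 act on the same lipase in opposite directions. Abhd5, the co-activator (chromosome 9, 122351608 to 122381524, plus strand), was at 9.01, 11.0 and 10.8 FPKM in control livers and at 10.6, 14.5 and 9.75 FPKM in lipophagy livers. Lipophagy 2 stood above the other livers and the remaining lipophagy values lay within the control range. The log2 change was 0.15 (SE 0.14, 95% interval −0.19 to 0.48, adjusted p = 0.589, limma). It was −0.01 without lipophagy 2, 0.06 without control 1 and 0.25 without lipophagy 3, and −0.02 with the same sum of FPKM.

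G0s2, the inhibitor (chromosome 1, 193272161 to 193273217, minus strand), was at 30.3, 37.5 and 20.6 FPKM in control livers. In lipophagy livers it was at 35.4, 59.3 and 114 FPKM. Lipophagy 1 lay below control 2, so the groups overlapped, while lipophagy 2 and lipophagy 3 stood above every control liver. The ratio of the group means was 2.36, and the log2 change was 1.09 (SE 0.39, 95% interval 0.21 to 1.98). This had an unadjusted p of 0.0218 and an adjusted p of 0.204 (limma). Only 0.209% of the tested genes had a larger positive log2 change, yet the spread among lipophagy livers was wide. Lipophagy 3 set much of the size, since without it the log2 change was 0.66 with an unadjusted p of 0.0515, and without control 3 it was 0.87 with an unadjusted p of 0.0762 (limma). Without lipophagy 1 it was 1.49 with an unadjusted p of 0.00227. The direction was the same under every scaling tried, with 0.97 after quantile normalization (unadjusted p = 0.0477, limma) and 0.92 with the same sum of FPKM (unadjusted p = 0.0519, limma). The annotation gives G0s2 a single transcript, and an estimated 505 to 2029 fragments per liver stand behind its values, so counting error is small beside the spread between livers.

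**Figure D2:**
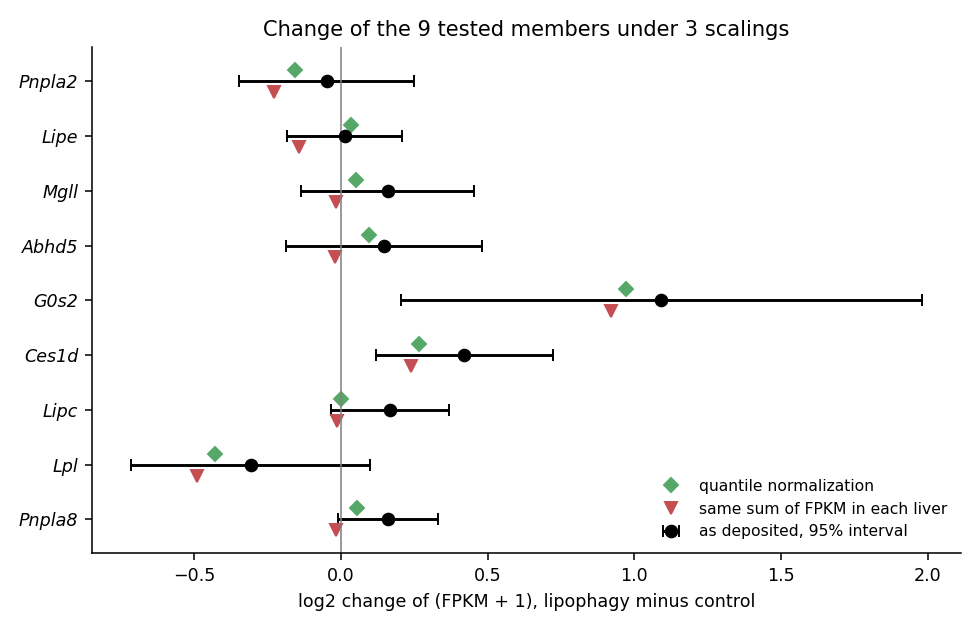
Log2 change of (FPKM + 1), lipophagy minus control (x axis), for the 9 tested members (y axis), with black points and bars for the deposited values and their 95% interval from limma, green diamonds for quantile normalization and red triangles for the same sum of FPKM in each liver. The intervals of G0s2 and Ces1d lie above 0, and the red triangles of Lipe, Mgll, Abhd5, Lipc and Pnpla8 lie below 0.

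The ratio of a co-regulator to Pnpla2 within a liver does not depend on a factor applied to the whole library, apart from the pseudocount. G0s2 over Pnpla2 was 1.16, 1.59 and 0.720 for the controls, compared with 1.67, 2.37 and 3.82 after lipophagy induction. Each lipophagy liver exceeded each control liver, though lipophagy 1 was close to control 2. On the log2(FPKM + 1) scale the mean ratio was 1.28 ± 0.60 in lipophagy and 0.13 ± 0.55 in control livers, a difference of 1.14. The two-sided exact permutation test gave p = 0.1, the smallest value that 3 livers against 3 can give, so this design could not reach 0.05. Abhd5 over Pnpla2 was 0.346, 0.468 and 0.376 for the controls, compared with 0.498, 0.579 and 0.327 after lipophagy induction. Lipophagy 3, which had the highest inhibitor ratio, had the lowest co-activator ratio, and the groups overlapped. The difference on the log2 scale was 0.20 with an exact permutation p of 0.5, and it was 0.04 without lipophagy 2, 0.11 without control 1, 0.31 without control 2 and 0.42 without lipophagy 3.

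**Figure D3:**
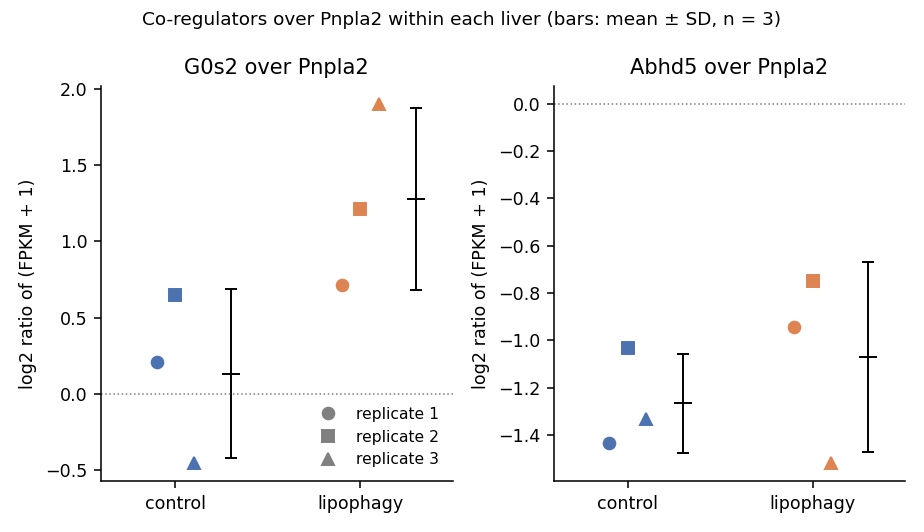
Log2 ratio of (FPKM + 1) of G0s2 to Pnpla2 (left) and of Abhd5 to Pnpla2 (right) in each liver (y axis), for control and lipophagy livers (x axis), with black bars for mean ± SD of 3 livers and a dotted line at equal level. The G0s2 ratio is above 0.71 in all lipophagy livers and at most 0.65 in control livers, while the Abhd5 ratios of the groups overlap.

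Ces1d (chromosome 8, 93166068 to 93197838, minus strand), which mobilises stored triglyceride for the assembly of very low density lipoprotein, was the most abundant member. It was at 226, 196 and 174 FPKM in control livers and at 280, 227 and 291 FPKM in lipophagy livers. All lipophagy livers were above all control livers, but lipophagy 2 and control 1 nearly touched. The ratio of means was 1.34 and the log2 change 0.42 (SE 0.13, 95% interval 0.12 to 0.72, unadjusted p = 0.0122 and adjusted p = 0.176, limma). The unadjusted p was 0.120 after quantile normalization, with a log2 change of 0.27, and 0.130 with the same sum of FPKM, with 0.24. Albumin and summed FPKM were also higher in lipophagy than in control livers, as given above. Within each group the liver with the highest Ces1d, control 1 and lipophagy 3, had the lowest summed FPKM. The part of albumin and of summed FPKM in the Ces1d difference was not tested. Without control 3 the unadjusted p was 0.0503 (limma). None of the 100-base windows of its longest transcript occurred exactly in another gene's transcripts. Matches with mismatches were not examined, so whether reads of the neighbouring carboxylesterases were fully separated from it is not known.

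Lipc (chromosome 9, 70798128 to 70952226, minus strand), the hepatocyte's secreted lipase that remodels lipoproteins in the sinusoids, was at 98.7, 110 and 99.3 FPKM in control livers and 123, 115 and 108 FPKM in lipophagy livers. Lipophagy 3 lay below control 2, so the groups overlapped. The log2 change was 0.17 (SE 0.087, 95% interval −0.03 to 0.37, unadjusted p = 0.0892 and adjusted p = 0.318, limma). It was −0.00035 after quantile normalization and −0.01 with the same sum of FPKM. Without lipophagy 3 it was 0.22 with an unadjusted p of 0.0495 (limma).

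Lpl (chromosome 8, 68880491 to 68907448, plus strand), which releases fatty acids from circulating triglyceride and is also made by macrophages, was at 33.1, 41.8 and 47.0 FPKM in control livers. It was at 25.2, 39.0 and 34.3 FPKM in lipophagy livers, with lipophagy 1 lowest, control 3 highest and the other livers interleaved. The log2 change was −0.31 (SE 0.18, 95% interval −0.71 to 0.10, unadjusted p = 0.120 and adjusted p = 0.361, limma). It was −0.43 with an unadjusted p of 0.0408 after quantile normalization and −0.49 with an unadjusted p of 0.0240 with the same sum of FPKM. The unadjusted p was also below 0.05 without control 1 (0.0390) and without lipophagy 2 (0.0418), and the log2 change was −0.13 without lipophagy 1 and −0.20 without control 3. The 8 macrophage markers summed to 525, 667 and 711 FPKM in controls 1 to 3 and to 532, 648 and 522 FPKM in lipophagy livers 1 to 3, with 6 of 8 lower on average in lipophagy livers. Csf1r (log2 change −0.28, unadjusted p = 0.00593, limma) and Cd68 (−0.38, unadjusted p = 0.0158, limma) were lower without overlap, while Adgre1 (0.05, unadjusted p = 0.661, limma) and Clec4f (0.17, unadjusted p = 0.276, limma) were not. The part of macrophages in the Lpl values was not tested. The RNA came from whole liver, so fewer cells of a type and less RNA per cell cannot be told apart.

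Pnpla8 (chromosome 12, 44221370 to 44322532, plus strand) was at 21.1, 20.7 and 19.5 FPKM in control livers and 22.3, 23.8 and 22.6 FPKM in lipophagy livers. The groups did not overlap and the values were tight, with an SD of 0.832 FPKM in control and 0.815 FPKM in lipophagy livers. The log2 change was 0.16 (SE 0.074, 95% interval −0.01 to 0.33, unadjusted p = 0.0628 and adjusted p = 0.280, limma), and −0.02 with the same sum of FPKM in each liver. After quantile normalization it was 0.06 with an unadjusted p of 0.509 (limma). The unadjusted p was 0.0348 with no filter on low values and 0.0225 with the quality weight (limma).

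The order of the members by FPKM, which is per length, was Ces1d, Lipc, Lpl, G0s2, Mgll, Pnpla2, Pnpla8, Abhd5, Lipe and Pnpla3 in control livers. The ranges of Lpl and G0s2, of G0s2 and Mgll and of Mgll and Pnpla2 overlapped, and all other neighbours were apart. In lipophagy livers G0s2 stood before Lpl and the rest kept their places, and here the ranges of Lipc and G0s2, G0s2 and Lpl, Lpl and Mgll, and Pnpla2 and Pnpla8 overlapped. The 10 transcripts summed to 472, 479 and 431 FPKM in control livers and 552, 539 and 648 FPKM in lipophagy livers. Most of this came from Ces1d and Lipc, neither of which acts in the cytosol. Ces1d held 40.4% to 47.8% of that sum in control and 42.1% to 50.6% in lipophagy livers.

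Within the panel, likeness was measured as the root mean square difference of log2(FPKM + 1) profiles over the 6 livers, each profile centred and scaled to unit SD. Pnpla2 and Lipe were each other's nearest member at 0.544, both with lipophagy 1 lowest and lipophagy 3 highest. G0s2 and Pnpla8 were each other's nearest at 0.643. Among all other tested genes the nearest to Pnpla2 were Tmem131 at 0.0744, Ppara at 0.147 and Sorbs3 at 0.202, where the median gene stood at 1.33. Ppara, which encodes a receptor that turns on fatty acid oxidation genes, was at 19.9, 15.9 and 21.1 FPKM in control livers and 13.6, 18.4 and 23.9 FPKM in lipophagy livers, the same order of livers as Pnpla2. The nearest to G0s2 were Arhgap42 at 0.0818, Snrpf at 0.111 and Gng12 at 0.121, beside a median of 1.26. With 6 livers and 11493 genes some profiles lie close for any gene, and nothing more is read from these neighbours.

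The genes around the lipases were described by lists, of which 78 of 88 listed genes were tested. None had an adjusted p below 0.05 (limma). At an unadjusted p below 0.05 there were 8 higher and 3 lower in lipophagy livers, 14.1% of those tested, beside the background of 11.5% of all tested genes higher and 7.97% lower. The balance of directions depended on the scaling. There were 15 genes after quantile normalization and 22 with the same sum of FPKM, and in both more were lower than higher. All tested genes had 745 higher and 899 lower, and 236 higher and 2506 lower, under these scalings. The median log2 change of the 78 genes was 0.06.

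**Figure D4:**
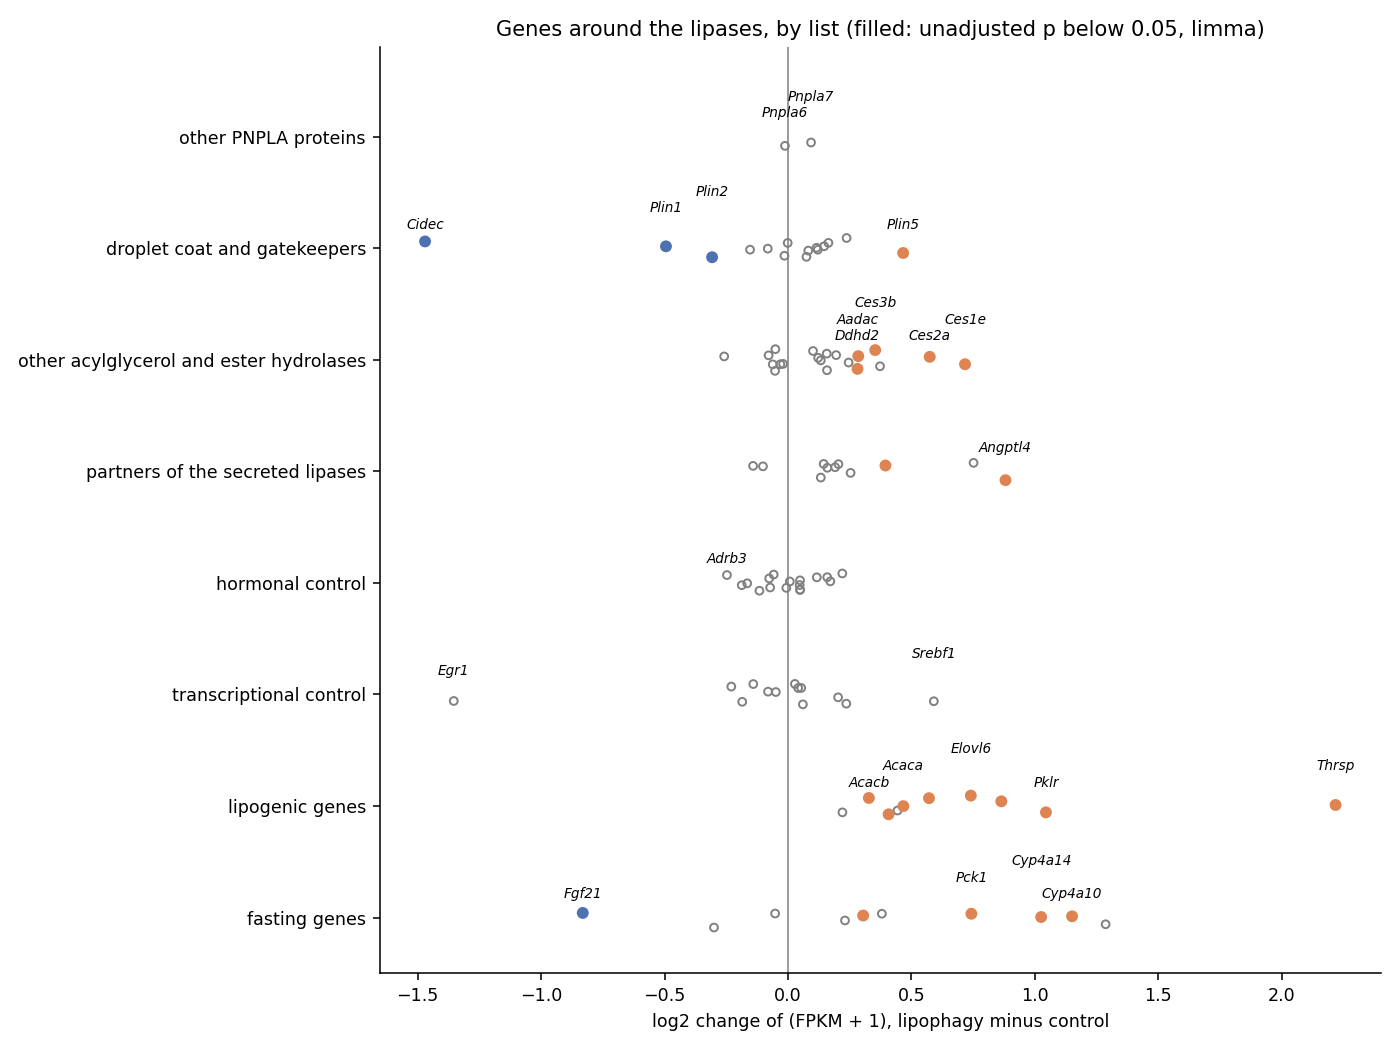
Log2 change of (FPKM + 1), lipophagy minus control (x axis), of every tested gene of 6 lists around the lipases and 2 lists of lipogenic and fasting genes (y axis, spread vertically only to separate points), with filled points for an unadjusted limma p below 0.05 (orange higher, blue lower) and names for the genes named in the text. Cidec lies far to the left at −1.47 in the droplet coat list, and all 10 lipogenic genes lie to the right of 0.

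Among 15 tested genes of the droplet coat and its gatekeepers, 3 were lower and 1 was higher at an unadjusted p below 0.05. These counts were 4 and 1 after quantile normalization and 4 and 0 with the same sum of FPKM. With the same sum, all 11493 tested genes had 2506 lower and 236 higher. Cidec, which encodes a protein that fuses droplets, was at 5.76, 6.61 and 6.29 FPKM in control livers and at 0.818, 1.61 and 2.72 FPKM in lipophagy livers. The groups were well apart, with a log2 change of −1.47, an unadjusted p of 0.000172 and an adjusted p of 0.0897 (limma). Plin2, the ubiquitous droplet coat protein, averaged 163 ± 11.0 FPKM in lipophagy and 202 ± 18.7 FPKM in control livers (log2 change −0.31, unadjusted p = 0.0139, limma). Plin5, a coat protein that docks adipose triglyceride lipase and ABHD5, averaged 24.6 ± 1.97 against 17.7 ± 3.41 FPKM (log2 change 0.47, unadjusted p = 0.00857, limma). That unadjusted p was 0.0558 with the same sum of FPKM. Plin1 averaged 92.6 ± 9.23 FPKM in lipophagy and 132 ± 24.3 FPKM in control livers (log2 change −0.49, unadjusted p = 0.00707, limma). Both viruses carry Plin1 sequence, so reads from the mouse gene and from the virus cannot be told apart, and this value says nothing of the endogenous gene alone.

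The 20 other tested acylglycerol and ester hydrolases, fellows of Ces1d, had 5 genes higher and 0 lower at an unadjusted p below 0.05, with a median log2 change of 0.14. Ces2a was at 142, 125 and 129 FPKM in control livers and at 221, 195 and 177 FPKM in lipophagy livers (log2 change 0.57, unadjusted p = 0.000539 and adjusted p = 0.111, limma). Ces1e, from the same gene cluster as Ces1d, was at 59.6, 46.9 and 41.1 FPKM in control livers and at 101, 63.5 and 81.3 FPKM in lipophagy livers (log2 change 0.72, unadjusted p = 0.00480, limma). In both genes every lipophagy liver was above every control liver. The others were Ces3b with a log2 change of 0.35, Aadac, an endoplasmic reticulum hydrolase also linked to lipoprotein assembly, with 0.28, and the phospholipase gene Ddhd2 with 0.28. After quantile normalization the list had 3 higher and 2 lower and a median of 0.0037. With the same sum of FPKM it had 2 higher and 5 lower and a median of −0.04, where all 11493 tested genes had 236 higher and 2506 lower and a median of −0.13. Ces2a and Ces1e had an unadjusted p below 0.05 under both. In this family the genes above Ces1d in control livers were Ces1c at 1444 ± 1.99 FPKM, Ces3a at 1177 ± 75.0 FPKM and Aadac at 404 ± 20.1 FPKM. Lipa, the lysosomal acid lipase that degrades droplets delivered by autophagy, was at 57.3 ± 1.33 FPKM in control and 54.5 ± 6.30 FPKM in lipophagy livers, and it is named outside the rule for genes after its values were seen.

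**Figure D5:**
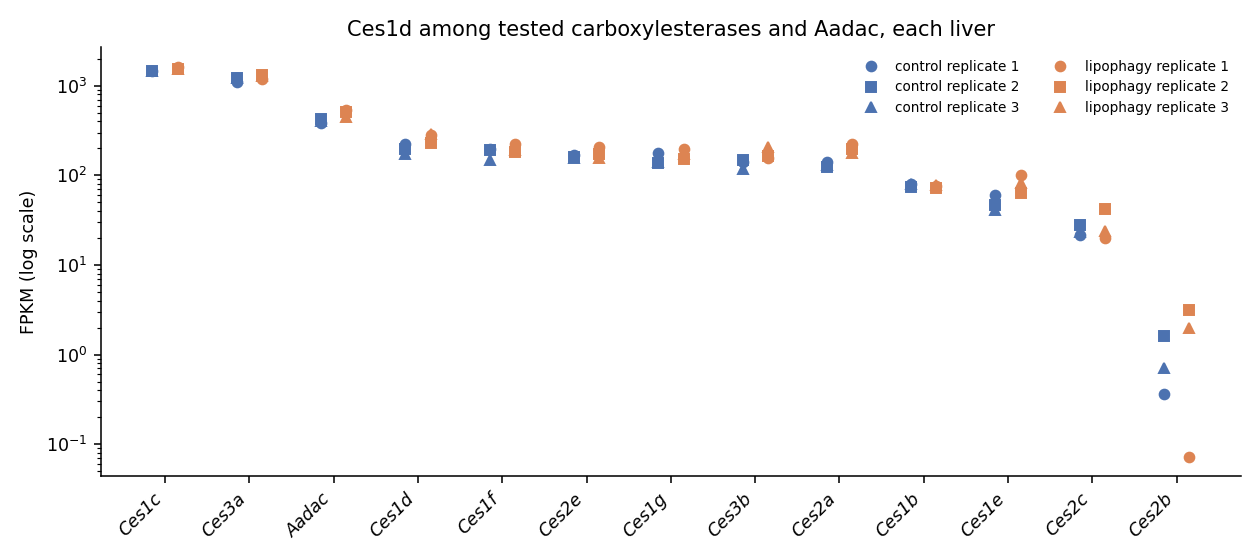
FPKM on a log scale (y axis) of Ces1d, the other tested carboxylesterases and Aadac (x axis, ordered by control mean) in each control liver (blue) and lipophagy liver (orange), with symbols for the replicate number. All orange points stand above all blue points for Ces1c, Ces1d, Ces1e, Ces2a, Ces3b and Aadac. The groups overlap for Ces1b, Ces1f, Ces1g, Ces2b, Ces2c, Ces2e and Ces3a. Of all tested genes, 15.4% were higher without overlap.

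Of 11 tested partners of the secreted lipases, 2 were higher and 0 lower at an unadjusted p below 0.05. There were 2 higher and 1 lower after quantile normalization and 2 higher and 2 lower with the same sum of FPKM. All 11493 tested genes had 236 higher and 2506 lower with the same sum. The median log2 change of the 11 partners was 0.19, and 0.0083 with the same sum, beside −0.13 over all tested genes under that scaling. Angptl4, which encodes an inhibitor of lipoprotein lipase, was at 37.8, 55.5 and 56.6 FPKM in control livers and at 61.9, 115 and 107 FPKM in lipophagy livers, without overlap. Its log2 change was 0.88 (unadjusted p = 0.00708 and adjusted p = 0.157, limma). Its direction was the same under every scaling, with a log2 change of 0.73 after quantile normalization and 0.70 with the same sum of FPKM.

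The upstream lists held no gene with an unadjusted p below 0.05. The 17 tested genes of hormonal control, from adrenergic and glucagon receptors to protein kinase A and insulin signalling, had a median log2 change of 0.0075. The lowest was the adrenergic receptor Adrb3 at −0.25 (unadjusted p = 0.0736, limma). The 13 tested transcriptional regulators had a median of 0.03, with Srebf1, which drives lipogenic genes, at 0.59 (unadjusted p = 0.0896, limma) and the immediate early gene Egr1 at −1.35 (unadjusted p = 0.0720, limma). Egr1 ranged from 4.58 to 29.6 FPKM in control livers and from 1.76 to 10.1 FPKM in lipophagy livers, and replicate 2 was highest in both groups. With the same sum of FPKM these lists had 4 and 3 genes lower at an unadjusted p below 0.05, Adrb3 and Egr1 among them, a share near that of the 2506 of 11493 tested genes lower under this scaling, and after quantile normalization hormonal control had 1 higher and 1 lower. The 2 tested relatives of Pnpla2, the lysophospholipase genes Pnpla6 and Pnpla7, had log2 changes of −0.01 and 0.09. After quantile normalization these were 0.03 and −0.02.

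Nutritional programs known to act on G0s2 and the lipases were read beside them. All 10 lipogenic genes were higher on average in lipophagy livers, 8 with an unadjusted p below 0.05, and the median log2 change was 0.52. Thrsp, a gene of the lipogenic response, was at 124, 172 and 85.1 FPKM in control livers and 802, 284 and 818 FPKM in lipophagy livers (log2 change 2.22, unadjusted p = 0.000681 and adjusted p = 0.116, limma). Pklr, the liver pyruvate kinase, had a log2 change of 1.04, Elovl6, a fatty acid elongase, 0.74, and Acaca and Acacb, which make malonyl-CoA, 0.47 and 0.33. All 10 were still higher under every scaling, with 6 and 4 at an unadjusted p below 0.05 after quantile normalization and with the same sum. Lipophagy 2, the middle liver for G0s2, had the lowest Thrsp of its group, and lipophagy 1, the lowest for G0s2, had a Thrsp level close to the highest. Of 10 fasting genes 4 were higher and 1 lower at an unadjusted p below 0.05. Pck1, of gluconeogenesis, had a log2 change of 0.74, and the fatty acid hydroxylases Cyp4a10 and Cyp4a14 1.15 and 1.03, while the hormone gene Fgf21 was at −0.83 (unadjusted p = 0.000534 and adjusted p = 0.111, limma). After quantile normalization 3 were higher and 2 lower, and with the same sum of FPKM 2 and 2. The unadjusted p of Pck1 was 0.0829 and 0.0533 under these scalings (limma). The part of these programs in the G0s2 difference was not tested.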

How the data were processed

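Whole-liver RNA of 3 control and 3 lipophagy livers was analysed, with groups taken from the labels. The authors deposited FPKM values per gene symbol. The submitters' processing notes name TopHat2 2.0.13, Bowtie2 2.2.3, SAMtools 0.1.19, Cufflinks 2.2.1 and build mm10. Libraries were made with a strand-specific TruSeq kit. The annotation and whether counting used the strand are not given in the sources used here, so reads of Lipe, Mgll, Abhd5 and Pnpla8 and of overlapping genes on the opposite strand may not have been separated. FPKM shares a library among all its genes, so very abundant transcripts move the values of others.

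Values were tested as log2(FPKM + 1), with a mean of at least 0.5 FPKM, by limma 3.58.1 in R 4.3.3 (intensity trend, two-sided, Benjamini-Hochberg adjustment over 11493 genes, threshold 0.05). A log2 change on this scale understates that of low genes. Ratios were compared with an exact permutation test. Gene positions are from GENCODE (GRCm38). Depth was estimated from the steps of low FPKM values, on which 64.9% to 72.9% of 1588 to 1756 low genes lay, and from transcript lengths less 150 bases. Numbers of fragments are estimates that cover counting error only. Named genes were all members, and in each list the genes with an unadjusted p below 0.05 and no overlap, or else the largest rise and fall, and the 3 genes nearest to Pnpla2 and to the member with the largest change. Some results that this rule calls for are not reported here. The members and lists were chosen with earlier results of these data known. Alternatives were other pseudocounts, filters and scalings, no trend, a replicate block, a quality weight for each liver and leaving out each liver. Python 3.11.15 was used for tables and plots. Same-numbered livers deviated together in replicates 1 and 2 (correlations 0.25 and 0.23) and not in replicate 3 (−0.06), so the numbers were not treated as pairs.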

Additional observations from a re-analysis of the deposited data

How the results depend on the processing

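No member had an adjusted p below 0.05 in any of the 17 settings (limma). At an unadjusted p below 0.05 there were 2 members, 1 with the same sum of FPKM in each liver (Lpl) and 0 to 3 with a liver left out, 0 of them without control 3. Of pathway genes there were 11, 22 with the same sum, most of them lower, and 8 to 17 with a liver left out. Over all genes 3 had an adjusted p below 0.05, 1 with no filter, 104 with the same sum, 39 with a quality weight for each liver and 2 to 11 with a liver left out. The same sum and the quality weight were chosen after seeing the data. Among all genes 1327 were higher and 916 lower at an unadjusted p below 0.05, 745 and 899 after quantile normalization and 236 and 2506 with the same sum. The log2 change reversed with the same sum for Lipe (−0.14), Mgll (−0.018), Abhd5 (−0.022), Lipc (−0.013) and Pnpla8 (−0.015), with quantile normalization for Lipc (−0.00035) and with the quality weight for Lipe (−0.0032). With a liver left out Pnpla2 ranged from −0.17 to 0.068 (above 0 without control 3, 0.018, and without lipophagy 1), Lipe from −0.044 (without lipophagy 3) to 0.070, with −0.0074 without control 1, and Abhd5 from −0.011 (without lipophagy 2) to 0.25. The causes were not tested. The difference in the G0s2 to Pnpla2 ratio stayed between 0.83 and 1.42 with a liver left out, and that of Abhd5 between 0.035 and 0.42.

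With the replicate block 43 genes had an adjusted p below 0.05 and 3 members an unadjusted p below 0.05, Lpl (0.0187), G0s2 (0.0152) and Ces1d (0.0112), and 14 pathway genes did. The exact p of the G0s2 ratio was 0.25 with the replicate block, the smallest that 3 pairs can give, and that of Abhd5 0.5. Not every liver correlated best with its own number. Pnpla3 was left out of the test for its low level.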
